A study of Homo sapiens with 8 samples.

Results

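The comparison set 1 HT29 clone that expresses a short hairpin RNA (shRNA) against GFP beside the untreated HT29 line from which it was derived. HT29 is an established line of human colorectal cancer cells. The members are 2 of the 8 arrays of the series, chosen by their titles, with 1 array on each side. Neither side had a replicate, so all values describe these arrays and carry no error and no test. GFP is a jellyfish protein that human cells do not make, and a hairpin against it serves as a control for the vector and the hairpin itself. The study set HT29 before and after shRNA against CD24, a small glycosylated surface protein, and treated HT29 and the pancreatic line Colo357 with an anti-CD24 monoclonal antibody. The other HT29 derivatives used here for comparison are clone 833, with 1 CD24 shRNA vector, and clones G and E, with 2 such vectors each. An array of HT29 exposed to antibody SWA11 at 1:40 for 72 h gives a further sample of cells that were not cloned. Each shRNA line is 1 clone, so the hairpin, the vector, the selection and the outgrowth of 1 cell cannot be told apart. The labels do not say whether the samples came from separate cultures.

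An shRNA is transcribed from a vector, cut by the enzyme Dicer and loaded onto an Argonaute protein, which then finds RNA of matching sequence. Double-stranded RNA in the cytoplasm is also known to be read by sensors such as RIG-I, MDA5, PKR and the OAS enzymes, which lead to interferon production. Interferon in turn acts through JAK kinases and a factor complex with IRF9 on the interferon-stimulated response element of antiviral genes. Cells that grow out from 1 founder can also carry the expression state of that founder, as is well known for cancer lines.

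The hairpin's intended control property could be checked for CD24 only, because GFP itself is not probed by the genes analysed here. CD24 read 6425.1 in the parental line and 7362.5 in the GFP clone on its brightest probe set, against 558, 171.7 and 595.5 in clones 833, G and E. The log2 difference of the GFP clone was 0.20. The other 5 CD24 probe sets read 1236.7 to 5475.3 in the parental line and 1434.7 to 6901.1 in the GFP clone. The GFP clone thus had the CD24 level of the cells it came from on every probe set, within 2-fold.

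General epithelial markers were bright on both arrays. KRT8 read 9108.5 and 11018.9 in the parental line and the GFP clone, KRT18 read 14767.1 and 16438.2, and the adhesion molecule EPCAM read 4027.6 and 3546.3. Several intestinal markers were dim on both arrays: CDX1 read 6.5 and 6.9, CDX2 3.2 and 3.9, CDH17 6.6 and 2.8, and GPA33 26.4 and 23.7. Of 8 counted colorectal epithelium markers, 1 was 2-fold higher in the GFP clone and 2, LGALS4 and VIL1, were lower (values further down). CDH1, E-cadherin, read 2172.8 in the parental line and 15.4 in the GFP clone. Of the 12 leukocyte markers with a value and the 9 endothelial markers, 0 passed the filter described below. The summed intensity of the leukocyte list was 228.2 in the parental line and 188.9 in the GFP clone, that of the endothelial list 85.6 and 111.2, and that of the fibroblast list 171 and 187.3.

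The values are array intensities as deposited, and every difference is on the log2(intensity + 10) scale, GFP clone minus parental HT29, which understates differences of dim genes. A gene was counted if its mean over both arrays lay above the median of all values, an intensity of 45. Of 11963 genes with a value, 6906 were counted. A gene that passed only through the array on which it is bright had to differ, so a share of the counts follows from the filter. The median difference of the counted genes was 0.10, the value beside which all others stand. The GFP array had the highest median intensity of the 8 arrays, 63.1 against 44 for parental HT29, while their trimmed means were equal at 250.1. In a bulk sample, fewer cells with a transcript and less of it per cell cannot be told apart.

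At 2-fold or more, 1501 counted genes (21.7%) differed between the GFP clone and parental HT29. Of these, 1019 (14.8%) were higher in the GFP clone and 482 (6.98%) were lower. The share of higher genes among them was 67.9%; after quantile normalization it was 54.1%, from 803 higher and 682 lower genes. For scale, antibody-treated HT29 differed from parental HT29 by 2-fold at 12.3% of counted genes, clone 833 at 38.9%, clone G at 41.7% and clone E at 17.3%. All of these share the parental array. The clone G array stood apart on control signals. Its ACTB signal ratio, transcript end over start, was 1.77, against 1.06 to 1.17 on the other arrays. Its ribosomal RNA control read 434.8, against 14.7 to 48 on them, and its median intensity of 32.4 was the lowest. How far this bears on the percentages for clone G was not tested. Against clone E, the GFP clone differed at 11.7% of counted genes, against clone 833 at 30.9% and against clone G at 38.3%.

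The genes at 2-fold were then divided by what the 3 CD24 shRNA clones showed. A gene was called shared if the GFP clone and each of the 3 CD24 shRNA clones lay at 2-fold or more on the same side of parental HT29. It was assigned to the GFP clone alone if that clone lay at 2-fold or more from parental HT29 and from each of the 3 others on the same side, while none of the 3 reached 2-fold in that direction. Shared genes numbered 525 (7.6%), with 363 higher (5.26%) and 162 lower (2.35%). Genes of the GFP clone alone numbered 199 (2.88%), with 157 higher (2.27%) and 42 lower (0.608%). The remaining 777 (11.3%) were intermediate, with some of the CD24 shRNA clones at 2-fold or between the GFP clone and parental HT29. A gene of the GFP clone alone need not be at the parental level in the others. At the 157 higher genes, clones 833, G and E had medians of -0.79, -1.09 and -0.02 from parental HT29. All 3 lay below parental HT29 at 72 of these genes and above it at 11. The count alone rests partly on clone E: without it, 300 genes were higher and 76 lower in the GFP clone alone. Leaving out clone G instead gave 162 higher and 43 lower genes of the GFP clone alone. Shared genes then numbered 400 higher and 170 lower. Each class rests on 1 probe set a gene, the brightest. Among genes with 2 or more probe sets, the share with all of them at 2-fold between the GFP clone and parental HT29 was limited. It was 60% of shared higher and 43.3% of shared lower genes. In the GFP clone alone it was 47.7% of 88 higher and 55.6% of 9 lower genes. Near the threshold, 603 counted genes had an absolute difference from 0.8 to 1 and 429 had one from 1 to 1.2. At 126 of the 363 shared higher genes and 45 of the 157 of the GFP clone alone, parental HT29 was below the filter. Among lower genes, the GFP clone was below it at 39 of the 162 shared and 2 of the 42 alone. Such genes passed only through the array on which they are bright.

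**Figure D1:**
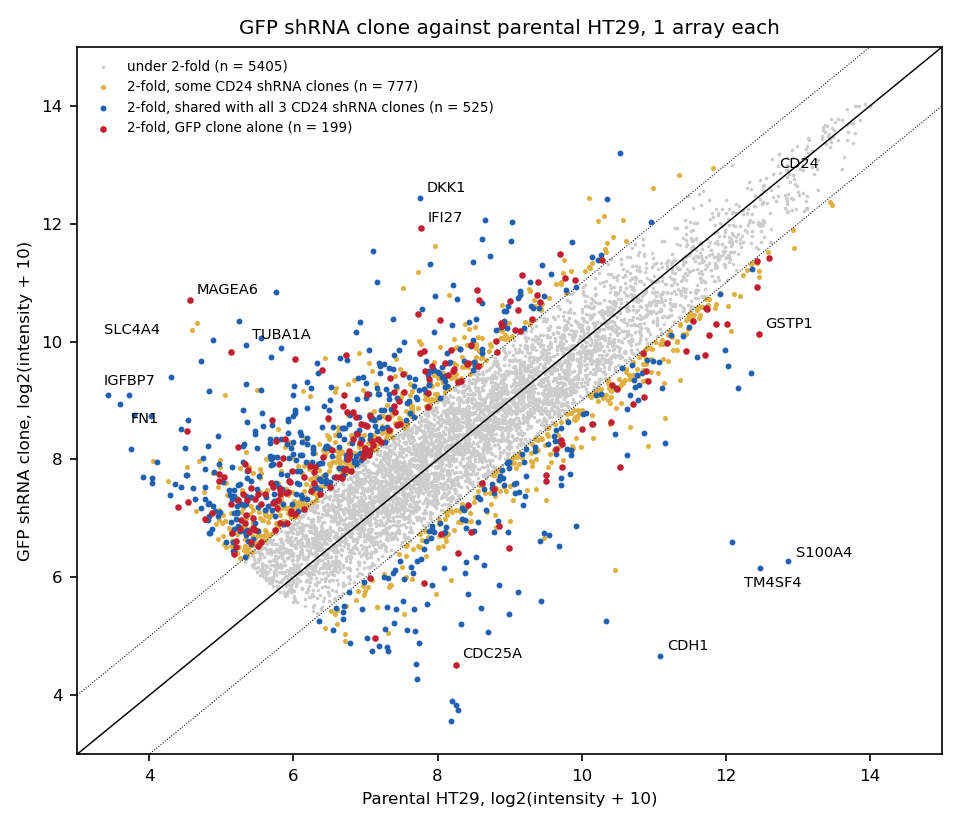
Log2(intensity + 10) of the 6906 counted genes in the parental line (x axis) and the GFP shRNA clone (y axis), 1 array each, 1 point a gene. The solid line marks equal values and the dotted lines 2-fold; blue genes are shared with all 3 CD24 shRNA clones (525), red genes belong to the GFP clone alone (199), and CD24 lies near the line of equal values.

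Since all shared genes lean on the parental array, antibody-treated HT29 was used as a further reference of cells that were not cloned. The GFP clone was also 2-fold from antibody-treated HT29, in the same direction, at 243 of the 363 shared higher genes (66.9%) and at 110 of the 162 shared lower genes (67.9%). In the GFP clone alone, it was so at 136 of 157 higher genes (86.6%) and at 36 of 42 lower genes (85.7%). With either uncloned array as the reference, 176 shared higher, 98 shared lower, 107 alone higher and 28 alone lower genes kept their class. The remaining genes of each class depend on which uncloned HT29 array is the reference.

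Interferon-stimulated genes had more members in the GFP clone alone than any other list. Of the 35 counted members of the lists of double-stranded RNA sensors, antiviral enzymes and interferon effectors, 30 were 2-fold higher in the GFP clone than in the parental line, 1 was lower and 4 differed by less. Over all counted genes, 14.8% were higher. The median difference was 1.82 in the GFP clone, against 0.26 in clone 833, -0.16 in clone G and -0.16 in clone E. Of the 30 higher genes, 20 were higher in the GFP clone alone, 3 were shared and 7 were intermediate. The median was 0.70 in antibody-treated HT29, so these genes were also brighter there than in untreated cells. Against antibody-treated HT29, the GFP clone had 22 of the 35 at 2-fold or more higher, with a median of 1.34, beside 20.4% of all genes counted in that comparison. The lists were chosen with interferon genes already known to be high in the GFP clone, so their direction is no independent evidence.

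The promoters of the following genes show the element by which interferon-responsive genes are known to be switched on. They run from 250 bases before to 50 bases after the gene start and are given in the direction of the gene, from RefSeq on GRCh38.p14. Capitals mark matches to the core of the interferon-stimulated response element, searched as GAAA, any 2 bases and GAAA again, on either strand (read as TTTC, any 2 bases and TTTC on the other one). Matches that overlap run together. IFI27, MX1 and IFIT1 stand for the genes of the GFP clone alone, IFITM3 for the shared genes, and BST2 is the interferon gene that was lower. They lie at chr14:94110486-94110785 (plus strand, IFI27), chr21:41420308-41420607 (plus strand, MX1), chr10:89392373-89392672 (plus strand, IFIT1), chr11:320811-321110 (minus strand, IFITM3) and chr19:17405581-17405880 (minus strand, BST2).
IFI27: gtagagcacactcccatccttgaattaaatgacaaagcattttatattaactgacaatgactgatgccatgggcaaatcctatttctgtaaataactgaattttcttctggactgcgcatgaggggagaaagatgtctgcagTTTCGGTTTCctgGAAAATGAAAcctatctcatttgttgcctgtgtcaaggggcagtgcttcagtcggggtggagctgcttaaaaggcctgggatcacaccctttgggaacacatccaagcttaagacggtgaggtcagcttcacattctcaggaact
MX1: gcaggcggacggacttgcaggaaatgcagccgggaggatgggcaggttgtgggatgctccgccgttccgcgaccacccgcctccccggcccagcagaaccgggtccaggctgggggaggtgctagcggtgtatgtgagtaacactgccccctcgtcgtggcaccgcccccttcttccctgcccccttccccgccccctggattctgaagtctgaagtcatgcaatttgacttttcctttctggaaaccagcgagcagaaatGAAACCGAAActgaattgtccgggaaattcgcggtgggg
IFIT1: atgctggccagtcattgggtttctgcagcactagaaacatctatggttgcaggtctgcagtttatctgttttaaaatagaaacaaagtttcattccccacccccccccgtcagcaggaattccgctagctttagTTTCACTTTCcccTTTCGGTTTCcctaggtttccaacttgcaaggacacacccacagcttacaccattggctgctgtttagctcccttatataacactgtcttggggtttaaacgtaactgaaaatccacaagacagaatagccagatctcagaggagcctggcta
IFITM3: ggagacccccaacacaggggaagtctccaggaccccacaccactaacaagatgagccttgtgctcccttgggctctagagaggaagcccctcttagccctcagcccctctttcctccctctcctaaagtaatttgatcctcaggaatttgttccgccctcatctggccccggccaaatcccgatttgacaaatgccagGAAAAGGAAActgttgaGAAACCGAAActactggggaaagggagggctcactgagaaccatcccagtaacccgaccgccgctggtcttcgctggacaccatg
BST2: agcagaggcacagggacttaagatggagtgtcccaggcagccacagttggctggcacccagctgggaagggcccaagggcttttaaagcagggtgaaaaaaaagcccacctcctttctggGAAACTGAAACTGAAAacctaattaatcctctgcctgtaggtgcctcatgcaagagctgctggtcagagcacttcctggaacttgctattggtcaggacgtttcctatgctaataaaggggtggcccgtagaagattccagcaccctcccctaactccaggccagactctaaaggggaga
Of the 35116 promoters of this length in the table, 1255 (3.57%) held a match. Among the counted interferon sensors and effectors, 30 had a promoter entry and 21 of these (70%) held one. For all genes higher in the GFP clone alone the share was 17 of 136 (12.5%), and 12 of the 17 genes with a match were members of these interferon lists. For shared higher genes it was 8 of 298 (2.68%) and for counted genes 226 of 5819 (3.88%). A match is a run of letters and shows no binding.

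IFI27, a small mitochondrial protein widely used as a marker of interferon exposure, had the largest difference among them. It read 208.7 in the parental line, 884.8 in antibody-treated HT29 and 3886.1 in the GFP clone, against 67.1, 3.6 and 18.3 in clones 833, G and E (log2 difference 4.16). The GFP clone was above every other HT29 array and the 3 CD24 shRNA clones lay below both uncloned arrays. IFI6, another small mitochondrial interferon-induced protein, read 23.1, 148.4 and 534.7 in the parental line, antibody-treated HT29 and the GFP clone, and 67.2, 15.6 and 14.6 in clones 833, G and E (4.04). Clone 833 was more than 2-fold above parental HT29 for IFI6, so it counts as intermediate.

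The sensors of double-stranded RNA had 7 of 9 counted members at 2-fold higher and 0 lower, with a median of 2.02. The median was 1.31 with both arrays above the filter, 1.34 with no filter and 1.49 against antibody-treated HT29. OAS2, which makes short adenylate chains that activate RNase L, read 12.9 in the parental line, 49.7 in antibody-treated HT29 and 348.5 in the GFP clone, and 35, 15.4 and 16.3 in clones 833, G and E (3.97). Its relatives OAS1 and OAS3 went from 96 to 866 (3.05) and from 215.5 to 902.9 (2.02). The GFP clone was the highest of the 6 HT29 arrays for all 3 enzymes. RIGI and IFIH1, which encode RIG-I and MDA5, went from 11 to 135.7 (2.79) and from 31.2 to 214.9 (2.45). EIF2AK2, which encodes the kinase PKR, read 286.2 in the parental line and 711 in the GFP clone (1.28), against 38.9, 59.3 and 232 in clones 833, G and E. All 6 of these genes belong to the GFP clone alone. ADAR, which edits double-stranded RNA, read 1369 and 3490.9 (1.34) and was intermediate, because the CD24 shRNA clones read 1968.5 to 2183.2. OASL and ZC3HAV1, an antiviral RNA-binding protein, differed by 0.47 and 0.89.

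Of the 26 counted effectors, 23 were higher at 2-fold and 1 lower, with a median of 1.82. MX1, a GTPase that blocks viral replication, read 54.9 in the parental line, 88.8 in antibody-treated HT29 and 827.5 in the GFP clone, and 67.7, 70.1 and 42.4 in clones 833, G and E (3.69). The 5 other HT29 arrays lay between 42.4 and 88.8 for MX1 and the GFP clone stood apart. IFIT1, which binds foreign RNA ends, read 74.6, 374.4 and 726.3 in the parental line, antibody-treated HT29 and the GFP clone, against 77.5, 19 and 27 in clones 833, G and E (3.12). Its difference from antibody-treated HT29 was 0.94, under 2-fold. HERC6, DDX60, IFITM1, IFITM2, IFI44, IFIT5, GBP2, IFIT3, SP110, PLSCR1 and SP100 were likewise higher in the GFP clone alone, at 1.21 to 2.98. IFITM1, IFITM2 and IFITM3 are near-identical membrane proteins that restrict viral entry, and their probe sets may share signal. IFITM3 was shared: it read 133.1 in the parental line, 2049.6 in the GFP clone, and 651.3, 446.8 and 436.4 in clones 833, G and E (3.85). ISG15, a ubiquitin-like modifier, read 1091.6 in the parental line and 5533.5 in the GFP clone (2.33), and 5045.3 in antibody-treated HT29, which was nearly the same. BST2, the surface protein tetherin, went the other way, from 674.5 to 88.2 (-2.80), and read 16.5, 1.8 and 0.9 in clones 833, G and E.

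The genes that make and relay interferon differed less as a list. Of 11 counted members, 3 were higher at 2-fold and 1 lower, with a median of 0.37. IRF9, the DNA-binding part of the factor that acts on the response element, read 76.4 in the parental line, 225.3 in antibody-treated HT29 and 838.7 in the GFP clone, and 459.5, 122 and 105.8 in clones 833, G and E (3.30). The kinase JAK1 differed by 1.44 and the factor IRF7 by 1.02 (0.01 from antibody-treated HT29), while IRF3 was lower, at 1226.9 and 579.7 (-1.07). The interferons themselves were dim: IFNB1 read 3 and 2.3, and IFNA1 1.7 and 3.2, in the parental line and the GFP clone. Not every interferon-responsive gene was bright in the clone, since the chemokine CXCL10 read 17.2 and 18.5 and IRF1 differed by 0.02. The RNA interference enzymes themselves showed no member at 2-fold among 10 counted, with DICER1 at 121 and 211.8 (0.76) and AGO1 at 216.5 and 373.2 (0.76).

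Antigen presentation genes, many of which are also interferon-inducible, had 7 of 17 counted MHC class I and peptide-loading members at 2-fold higher and 0 lower, beside 14.8% of all genes higher, with a median of 0.86. The median was 0.40 against antibody-treated HT29. Medians in clones 833, G and E were 0.70, 0.20 and 0.06. HLA-B read 1262.9 in the parental line and 4458.6 in the GFP clone (1.81), and 2883.9, 2861 and 1663.2 in clones 833, G and E. The peptide transporter TAP1 was shared, with 41.4 in the parental line, 229.9 in the GFP clone and 135 to 215.3 in the CD24 shRNA clones (2.22). Antibody-treated HT29 read 197.2 for TAP1, within 2-fold of the GFP clone (0.21). HLA-G belonged to the GFP clone alone (1.11), and the shared light chain B2M was just under 2-fold, at 4343.3 and 8206.7 (0.92). HLA class I genes are close paralogs, and their probe sets may share signal. Of the class II list, 2 genes were counted and both were higher: HLA-DMA (2.53, shared) and HLA-DMB (2.45, GFP clone alone), which together form the editor of class II peptides.

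**Figure D2:**
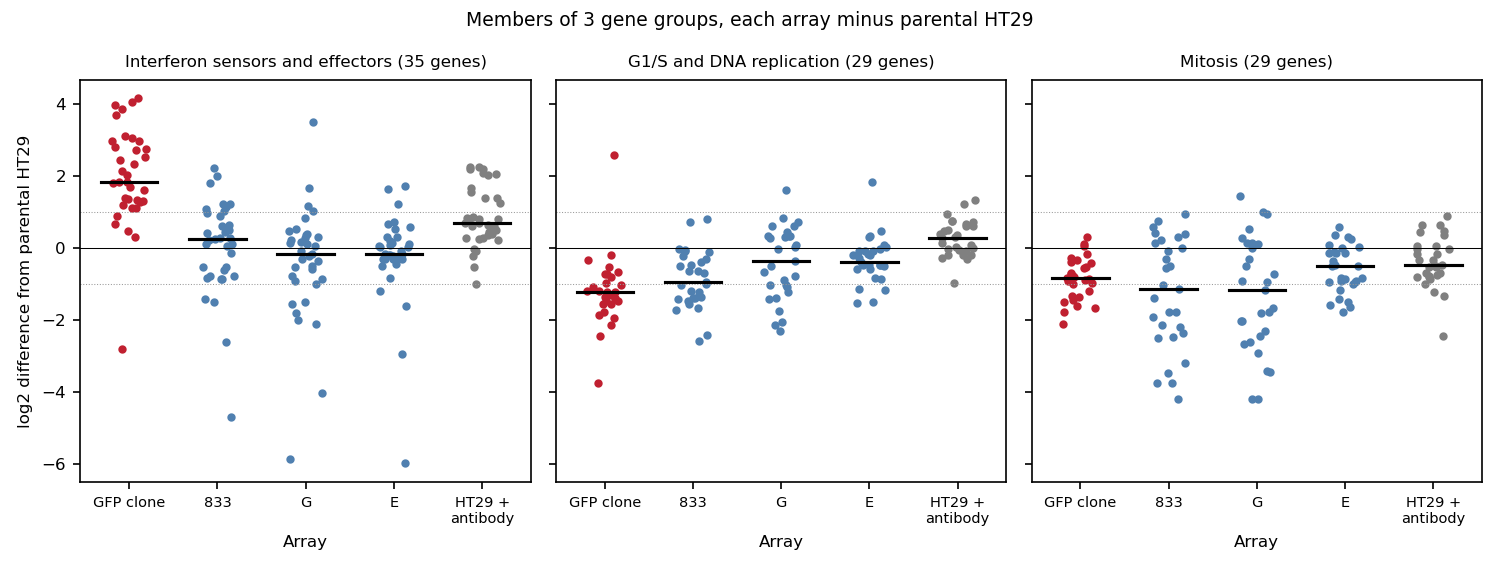
Log2 difference of each array from parental HT29 (y axis) for the counted members of 3 gene groups, 1 point a gene and a black bar at the median, for the GFP clone, the 3 CD24 shRNA clones and antibody-treated HT29 (x axis). The interferon median is high in the GFP clone (1.82) and near 0 in the CD24 shRNA clones, where single members lie 2-fold above or below parental HT29. The G1/S median is lowest in the GFP clone (-1.21), and the mitosis median is lower in clones 833 and G than in the GFP clone (-0.83).

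The largest single difference in the GFP clone alone was MAGEA6, a cancer-testis antigen of the X chromosome that is silent in most adult tissues. It read 13.7 in the parental line, 21.5 in antibody-treated HT29 and 1659.5 in the GFP clone, against 3.7, 11.1 and 1.1 in clones 833, G and E (6.14). MAGEA12, of the same gene cluster, read 25.1, 21.8 and 895.1, and then 10, 34 and 7.7 (4.69). The GFP clone was the only bright HT29 array for both. Both probe sets carry the suffix that marks cross-hybridisation among relatives, so the 2 genes and others of the family cannot be told apart here. These were the only 2 counted of 19 cancer-testis antigens with a value. PLCB1, a phospholipase of G protein signalling, went from 21.4 to 204.8 (2.77) and read 14.8 to 22.9 in the CD24 shRNA clones.

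Genes lower in the GFP clone alone were fewer than the higher ones with the deposited scaling (42 against 157). After quantile normalization the numbers were closer, at 97 lower and 116 higher. Of the 42, 5 reached 4-fold. DNA replication genes were among the 42. CDC25A, the phosphatase that opens the way into S phase, read 296.1 in the parental line, 461.3 in antibody-treated HT29 and 12.9 in the GFP clone, against 144.1, 538.8 and 226.4 in clones 833, G and E (-3.74). MYBL2, a factor of the S and G2 programme, read 1464.8 and 225.4 (-2.65), and the CD24 shRNA clones read 766.3 to 1383.9. The replicative helicase subunit MCM2 read 3331.8 and 861.9 (-1.94), and GINS2, which joins the active helicase, 714.4 and 188.9 (-1.86). Outside this group, GSTP1, a glutathione transferase that is abundant in the line, read 5643.5 in the parental line and 1105.2 in the GFP clone (-2.34), and 4722.1, 5126.7 and 3806.7 in clones 833, G and E. CAMK2N1, an inhibitor of the kinase CaMKII, read 500.4 and 79.9 (-2.51). PHKG2, DEF8, KAZN, S100A2, CARHSP1 and COTL1 lay between -2.16 and -1.80, but KAZN differed from antibody-treated HT29 by -0.53 only. GINS2, PHKG2, DEF8, CARHSP1 and COTL1 all lie on chromosome 16, whose counted genes had a median of -0.19 in the GFP clone. In clones 833, G and E that median was 0.01, 0.08 and -0.14. How far position accounts for these genes was not tested.

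As a list, 20 of 29 counted G1/S and DNA replication genes were 2-fold lower in the GFP clone and 1 was higher, beside 6.98% of all counted genes lower. The median was -1.21, and -0.94, -0.36 and -0.37 in clones 833, G and E. Of the 20, 6 were lower in the GFP clone alone (CDC25A, MCM2, GINS2, TK1, MCM7 and CCNE1), 4 were shared and the other 10 were intermediate. TYMS, which makes thymidylate, was shared: it read 4164.5 in the parental line, 756.2 in the GFP clone, and 1304.1, 2058.1 and 1906.1 in clones 833, G and E (-2.45). RRM2, the small subunit of ribonucleotide reductase, read 4054.2 and 914.4 (-2.14), and the clones 1749.2 to 1911. The member that was higher was CCND1, cyclin D1, at 122.6 and 784.4 (2.58), with 210.1, 393.5 and 463 in the CD24 shRNA clones.

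Of 29 counted mitosis genes, 9 were 2-fold lower in the GFP clone and 0 higher, beside 6.98% of all genes lower. In clones 833 and G, 16 and 15 were lower, beside 22.4% and 23.7% of all genes. The median was -0.83, against -1.14, -1.17 and -0.50 in clones 833, G and E. The summed intensity of the list was lowest in the GFP clone, at 14863.8 against 27665.6 in the parental line and 22237.7, 22868.8 and 21431 in clones 833, G and E, so the order of the clones turned with the measure. PLK1, a kinase of mitotic entry, read 1617.1 in the parental line, 798.9 in antibody-treated HT29 and 366.8 in the GFP clone, and 786.5, 855 and 799.2 in clones 833, G and E (-2.11). CCNB1, cyclin B1, read 2784.8 and 911.4 (-1.60) and was the 1 mitosis gene of the GFP clone alone. MKI67, which encodes the Ki-67 antigen, read 729.3, 429.1, 225.1, 207.1, 141.2 and 379.6 in the parental line, antibody-treated HT29, the GFP clone and clones 833, G and E. All 4 clones were lower than both uncloned arrays on this probe set; on another of the 4 for MKI67, clone E read 394.9 and antibody-treated HT29 357.8. The inhibitor of cyclin-dependent kinases CDKN1A (p21) read 63.1 in the parental line and 296.5 in the GFP clone (2.07), but 377.2 in antibody-treated HT29, so its direction reversed with that reference.

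Among the shared genes were adhesion and matrix transcripts. CDH1, E-cadherin, the main adhesion molecule of epithelial cells, read 2172.8 in the parental line and 2209.7 in antibody-treated HT29, but 15.4 in the GFP clone and 13, 7.7 and 1.4 in clones 833, G and E (-6.43). Its other probe set read 307.8 and 1.4 in the parental line and the GFP clone (-4.80). All 4 clones were thus dim for CDH1 and both uncloned arrays bright. The rest of the adherens junction and desmosome list did not follow: of 15 counted members, CDH1 alone was lower, PPL and EVPL, 2 plakins of the cell cortex, were higher (1.37 and 1.31), and the median was 0.14. CTNNA1 and JUP, which link cadherins to the cytoskeleton, differed by -0.11 and 0.10. PPL read 486 in antibody-treated HT29 and 485.1 in the GFP clone, values that were nearly equal. CDH3, the next gene to CDH1, read 59.6 and 83.5. Other counted genes close by were lower in the GFP clone: PRMT7 (-1.03), SNTB2 (-1.59) and VPS4A (-0.84). SNTB2 read 192 in the parental line, 57.1 in the GFP clone and 28.8, 48.4 and 58.8 in clones 833, G and E. VPS4A read 487.1 in the parental line but 731.7 and 650.4 in clones 833 and G. How far position accounts for the CDH1 difference was not tested.

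FN1, fibronectin, a matrix glycoprotein typical of mesenchymal cells, read 2.1 in the parental line and 2.5 in antibody-treated HT29, and 479.6 in the GFP clone, with 471.8, 237 and 452.5 in clones 833, G and E (5.34). The 4 clones were alike and both uncloned arrays near the bottom of the scale. CALD1, caldesmon, which binds actin filaments, read 9.7, 4.8 and 665.3, and then 76, 96.1 and 315.7 (5.10). The matrix glycoprotein TNC differed by 3.09, and the secreted TGFBI read 514.6 and 4187.8, both shared. Of the 31 mesenchymal and matrix genes with a value, 11 were counted; 6 of them were higher at 2-fold and 2 lower, beside 14.8% and 6.98% of all genes, with a median of 1.90. The members that were lower were COL4A2, a basement membrane collagen (-2.24), and S100A4. This list's median depended on the choices made: it was 0.29 where both arrays had to pass the filter, 0.50 for the mean of all probe sets and 0.25 against antibody-treated HT29. COL1A1 read 81.5 and 81.2.

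S100A4, a calcium-binding protein often used as a mesenchymal marker, had the largest shared difference. It read 7409 in the parental line, 9972.9 in antibody-treated HT29 and 67.5 in the GFP clone, against 271.9, 244.2 and 119.6 in clones 833, G and E (-6.58). Some relatives close to it on chromosome 1 were lower in the GFP clone but not in every other clone: S100A6 read 11386 and 5098.3 (-1.16), with 9734 to 12084.7 in the CD24 shRNA clones, and S100A2 read 301.1 and 74.7 (-1.88). S100A14, also close by, read 236 and 358.4 (0.58), and S100A13, on the same chromosome, differed by 0.95. Of 8 counted S100 genes, 4 were lower at 2-fold and 0 higher, where 6.98% of all genes were lower.

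IGFBP7, a secreted protein that binds insulin and insulin-like growth factors, read 0.7 and 2.3 in the uncloned arrays and 534.4 in the GFP clone, with 595.3, 1119.7 and 626.1 in clones 833, G and E (5.67). A further probe set read 2.8 and 610.4, and the third was dim on both arrays. DKK1, a secreted inhibitor of Wnt signalling, read 206.2, 210.6 and 5544.2, and then 2101.4, 1373.6 and 3442.6 (4.68). The GFP clone was the brightest array for DKK1. MMP7, a matrix protease and Wnt target, read 227 in the parental line, 2531.9 in the GFP clone and 1809.9 to 2488.5 in the other clones (3.42). LGR5, a marker of intestinal stem cells, was lower, at 149.6 and 23.1 (-2.27), but antibody-treated HT29 read 48.9 and the difference from it was -0.83. Over 14 counted Wnt targets and progenitor genes, 5 were higher and 1 lower, with a median of 0.76, beside 14.8% and 6.98% of all genes. PROM1, the surface antigen CD133, read 201.8 and 2305.9 (3.45) and was intermediate, with 553.2, 262.9 and 903.4 in clones 833, G and E.

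Further shared higher genes covered the cytoskeleton, translation and signalling. TUBA1A, an alpha tubulin, read 30.6 in the parental line, 973 in the GFP clone and 3648.7 to 7246.9 in the CD24 shRNA clones (4.60). The GFP clone thus lay between the parental cells and the other clones. EEF1A2, a translation elongation factor normally found in muscle and nerve, read 44.1 and 1820.3 (5.08), and WWTR1, the Hippo pathway co-activator TAZ, 3.8 and 420.3 (4.96). On another WWTR1 probe set the parental line read 16.1, the GFP clone 413.5 and clone 833 only 23.8, under 2-fold from the parental line. CD99, a surface glycoprotein, read 16.4 and 809.5 (4.96), and AGT, angiotensinogen, 19.6 and 1034.7 (5.14). AKAP7, TPPP3 and NEBL differed by 4.73 to 5.37. AKAP7 read 537.3 in the GFP clone but 64.2, 30.5 and 81.3 in clones 833, G and E, and NEBL 418.6 but 42.7, 58.1 and 118.3. Another AKAP7 probe set read 30 in the parental line, 117.5 in the GFP clone and 23, 46 and 37.7 in clones 833, G and E. None of these CD24 shRNA clones reached 2-fold on it. Of the 363 shared higher genes, 13 were 2-fold higher in the GFP clone than in each CD24 shRNA clone. In 6 of them each CD24 shRNA clone was 2-fold above the GFP clone. WWTR1 lies close to TM4SF4 on chromosome 3, and the 2 genes went opposite ways: TM4SF4, a membrane protein of gut and liver, read 5699 in the parental line, 61 in the GFP clone and 1.3 to 5.3 in the CD24 shRNA clones (-6.33). TM4SF1, also close by, read 3246.3 and 3035.7.

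Metabolic and detoxifying enzymes were among the shared lower genes. ALDH1A1, which oxidises retinal to retinoic acid, read 4320.2 in the parental line, 3629.1 in antibody-treated HT29 and 86.4 in the GFP clone, against 8.7, 2.3 and 14.9 in clones 833, G and E (-5.49). The GFP clone was lower than both uncloned arrays and higher than the other clones. Of 23 counted NRF2 targets and detoxifying enzymes, 9 were lower at 2-fold and 2 higher, where 6.98% and 14.8% of all genes were. The median was -0.80, and -0.89, -0.88 and -0.71 in clones 833, G and E. The aldehyde dehydrogenase ALDH3A1 read 498.4 and 31.8 (-3.60). The aldo-keto reductases AKR1C1, AKR1C2 and AKR1C3 differed by -3.16, -2.98 and -2.42; AKR1C1 and AKR1C2 are near-identical and may share signal. Without the cross-hybridising probe sets, AKR1C1 was represented by a dim one and differed by 0.02. HMOX1, an enzyme that degrades haem, was not among them, at 131.6 and 77.6 (-0.69).

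Secreted proteases and gut differentiation genes were mixed. The kallikrein KLK11 read 1285.9 and 28.5 (-5.07) and KLK10, in the same gene cluster, 5219.2 and 701.6 (-2.88), both shared, while KLK6 read 3705.1 and 2517.3. LGALS4, a galectin of the intestinal epithelium, read 4581.5 in the parental line and 584.5 in the GFP clone (-2.95), with 682.2, 53.6 and 32.5 in clones 833, G and E. VIL1, villin, of the brush border, read 439.3 and 105.5 (-1.96), and the membrane mucin MUC13 180.4 and 24.5 (-2.46). KRT20, a keratin of differentiated colon cells, was higher, at 1117.1 and 2761.4 (1.30), but read 4015.5 in antibody-treated HT29. DPP4, a brush border peptidase, differed by 2.71 and KLF4, a factor of goblet cells, by 2.60, both shared, but KLF4 read 187.6 in antibody-treated HT29 (0.73 from it). Of 8 counted enterocyte genes, 3 were higher and 2 lower, beside 14.8% and 6.98% of all genes. The shared lower group also held DNAJC15, DDC, EPS8L3, TMPRSS4, DPYSL2 and SNCG, at -4.63 to -3.62.

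**Figure D3:**
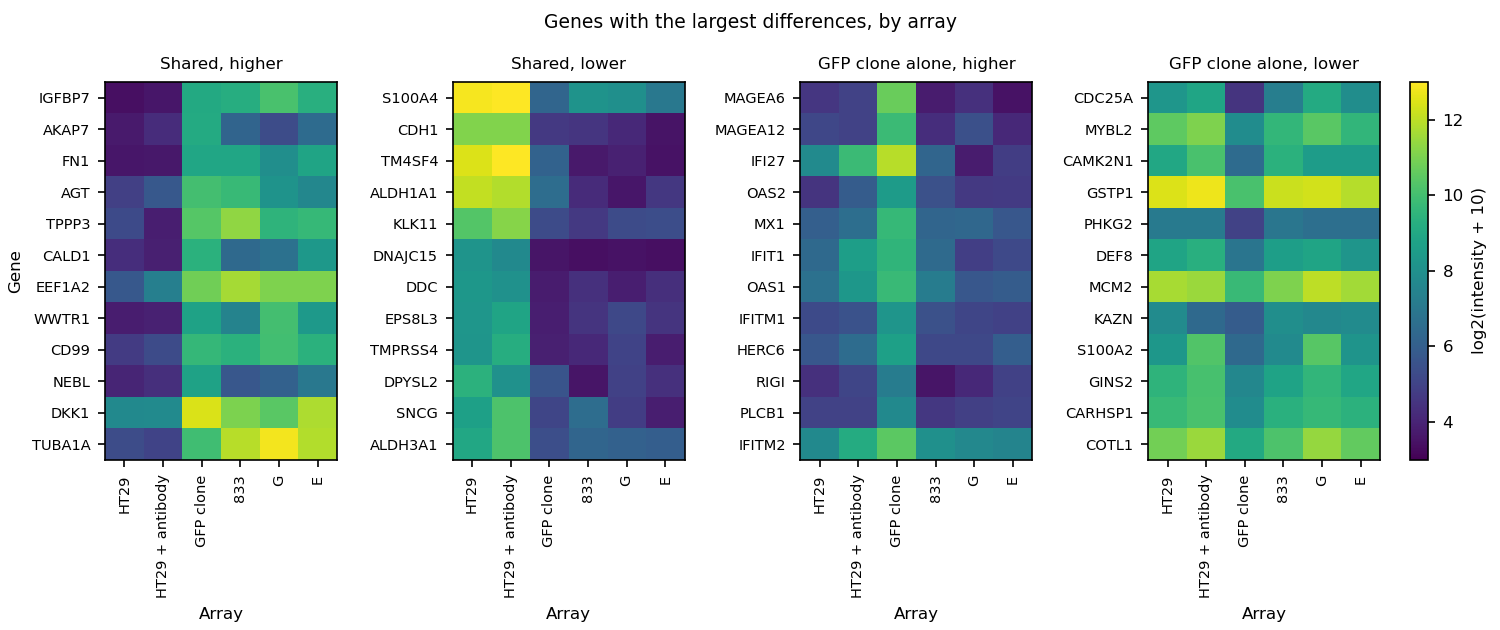
Log2(intensity + 10) (colour) of the 12 genes with the largest difference in each of the 4 classes (rows), on the 6 HT29 arrays (columns). In the shared panels the 4 clones differ from both uncloned arrays, as CDH1 does with 2172.8 and 2209.7 against 1.4 to 15.4; in the other panels the GFP clone is the brightest or dimmest, as MAGEA6 is at 1659.5, though within 2-fold of antibody-treated HT29 for IFIT1 and KAZN.

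Ion transport genes held the largest differences among the intermediate genes. GABRP, a GABA receptor subunit of epithelia, read 15.2 in the parental line, 6.3 in antibody-treated HT29 and 1269.3 in the GFP clone, and 43.3, 3.5 and 58.2 in clones 833, G and E (5.67). SLC4A4, a sodium bicarbonate cotransporter, read 14, 13.4 and 1162.3, and then 25.7, 17.8 and 85 (5.61). Both were far brighter in the GFP clone than on the other 5 HT29 arrays, and they counted as intermediate because clone E, and for GABRP clone 833 as well, lay 2-fold above parental HT29 too. CFTR, the chloride channel that is mutated in cystic fibrosis, read 167.2, 9.7 and 500.2, and then 88.8, 7.9 and 66.6 (1.53). Unlike these 2 genes, it belonged to the GFP clone alone. Of its 4 probe sets, 2 were at 2-fold, and their mean gave 0.85. The 2 uncloned arrays themselves were far apart for CFTR. Of 15 counted members, 8 were higher and 1, ATP1B3, a sodium pump subunit, lower (-1.27), beside 14.8% and 6.98% of all genes. The median was 1.14, but 0.69 against antibody-treated HT29, 0.71 with both arrays above the filter and 0.42 with no filter. It was 0.02, -0.07 and 0.12 in clones 833, G and E.

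Stress and inflammatory lists had shared members. Of 27 counted genes of the ATF4 and unfolded protein response, 7 were higher and 1 lower, where 14.8% and 6.98% of all genes were. The median was 0.61, and 0.55, 0.82 and 0.51 in clones 833, G and E. DDIT4, an inhibitor of mTOR complex activity, read 351.4 in the parental line, 329.5 in antibody-treated HT29 and 2605.9 in the GFP clone, against 2086.5, 901.9 and 1575.4 in clones 833, G and E (2.86). NUPR1, CHAC1, PHGDH, TRIB3 and ATF3 were shared as well, at 1.02 to 2.70, while the amino acid transporter SLC7A5 was lower (-1.26). Of these, PHGDH, TRIB3 and SLC7A5 were within 2-fold of antibody-treated HT29 (0.25, 0.86 and -0.78). Of 8 counted NF-kB targets, 4 were higher and 1 lower, beside 14.8% and 6.98% of all genes. The higher ones included the chemokine CXCL8 (2.15) and the adhesion molecule ICAM1 (1.76). Against antibody-treated HT29, CXCL8 and ICAM1 differed by 0.86 and 0.25. The list's median of 1.01 was 0.32 with that reference, 0.07 with both arrays above the filter, 0.14 with no filter and 0.34 without cross-hybridising probe sets. In the insulin-like growth factor list, 4 of 8 were likewise higher and 1 lower, beside the same 14.8% and 6.98%; the adaptor IRS1 read 150.4 and 740.6 (2.23), and IRS2, at 306.9 and 129.9 (-1.18), reversed to 0.43 against antibody-treated HT29. Cholesterol synthesis had 3 of 16 counted genes higher and 0 lower, hypoxia and glycolysis 4 of 20 higher and 0 lower, and tight junctions 2 of 8 higher and 0 lower, shares near the 14.8% of all genes that were higher. The 18 ribosomal protein genes, a reference for scaling, had 0 at 2-fold and a median of -0.01.

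**Figure D4:**
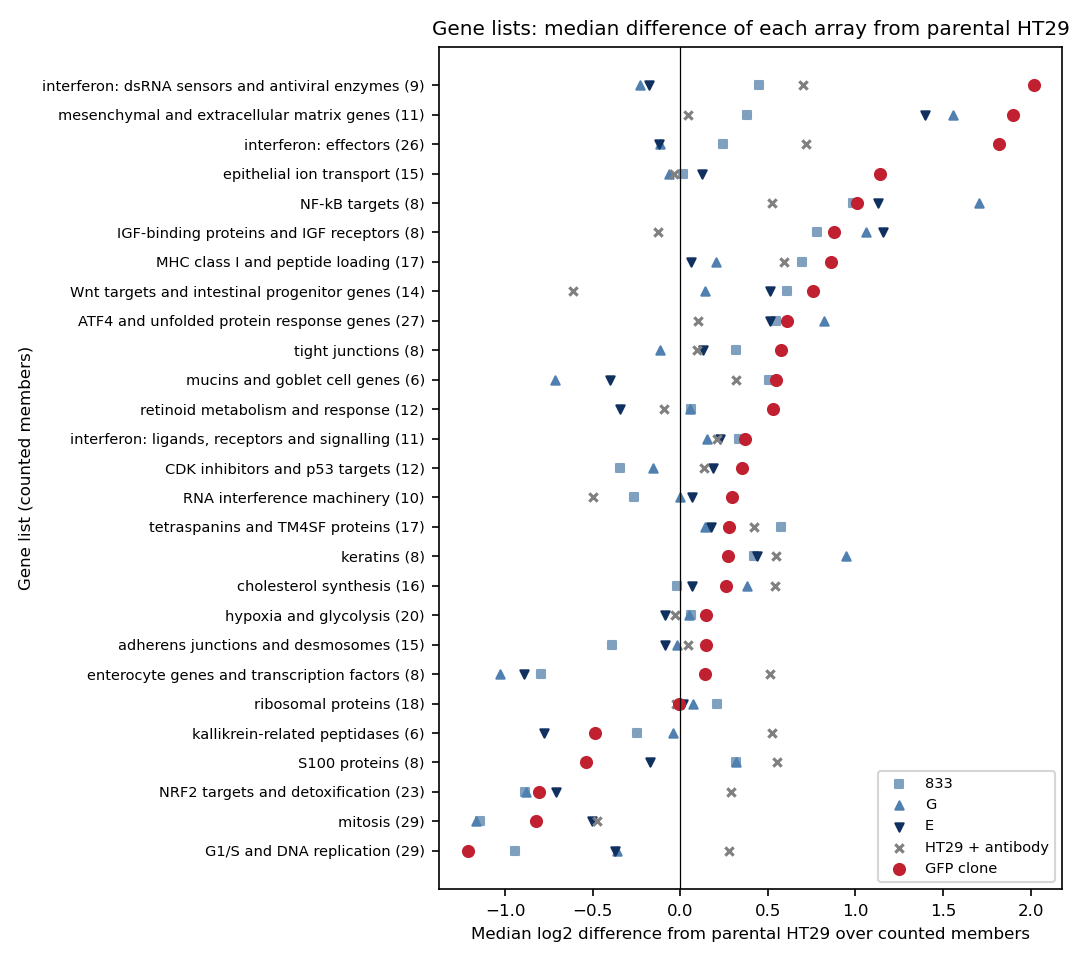
Median log2 difference from parental HT29 (x axis) over the counted members of each gene list with at least 6 of them (rows, number in brackets), for the GFP clone, the CD24 shRNA clones 833, G and E, and antibody-treated HT29. The GFP clone lies apart from the 3 CD24 shRNA clones for interferon sensors (2.02), interferon effectors (1.82) and ion transport (1.14). It lies among them for NRF2 targets (-0.80) and NF-kB targets (1.01). The medians of interferon sensors, interferon effectors, ion transport and NF-kB targets depend on the settings.

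Position along the chromosomes was described last. Runs of at least 4 counted neighbours that differed by 2-fold in one direction numbered 12. The longest held 7 genes on chromosome 6: TRIM38, H1-2, HFE, H2AC6, H2BC5, H2BC6 and H2BC9, which is the main cluster of replication-dependent histone genes. H2AC6 read 110.8 in the parental line, 29.4 in antibody-treated HT29 and 1279.2 in the GFP clone, and 584.7 to 982.7 in the other clones (3.42). The histone members were shared, whereas HFE, an iron regulator of the same stretch, was higher in the GFP clone alone (2.23), with 92.8 in the parental line, 472.3 in the GFP clone and 79.5 to 126.3 in the CD24 shRNA clones. On chromosome 14, IFI27 was followed by SERPINA1, SERPINA4 and SERPINA5, of the protease inhibitor cluster, at 2.68, 1.85 and 1.46. On chromosome 11, NCAPD3, THYN1, ACAD8 and GLB1L2 were lower together, at -2.81, -1.77, -1.32 and -1.62. Clustered histone, HLA and SERPINA genes are tandem relatives whose probe sets may share signal.

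Whole chromosomes were examined after the values had been seen. The median difference of the counted genes lay between -0.46 on chromosome 13 (121 genes) and 0.49 on chromosome 15 (216 genes), beside 0.10 over all. On chromosome 13, 28.9% of counted genes were 2-fold lower, and on chromosome 15, 28.7% were 2-fold higher. Chromosome 8 followed with a median of -0.29. There clones 833, G and E were at -0.81, -0.78 and -0.55, antibody-treated HT29 was at -0.16, and the GFP clone against antibody-treated HT29 was at -0.15, or -0.31 relative to all counted genes. On chromosome 13, clones 833, G and E had medians of -1.07, -1.06 and -0.39, but antibody-treated HT29 was also at -0.35, and the GFP clone against antibody-treated HT29 was at -0.01. Relative to all counted genes of that comparison it was -0.17, with 15.5% of its genes lower beside 9.43% of all. On chromosome 15, antibody-treated HT29 was at -0.07, the GFP clone against it at 0.53, and clones 833, G and E at 0.22, 0.06 and 0.35. On chromosome 16 the GFP clone was at -0.19, with 14.6% of counted genes lower beside 6.98% of all. Clones 833, G and E were at 0.01, 0.08 and -0.14 there, and antibody-treated HT29 at 0.01. The GFP clone against antibody-treated HT29 was at -0.17 on it, or -0.33 relative to all counted genes. DNA copy number was not measured here.

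**Figure D5:**
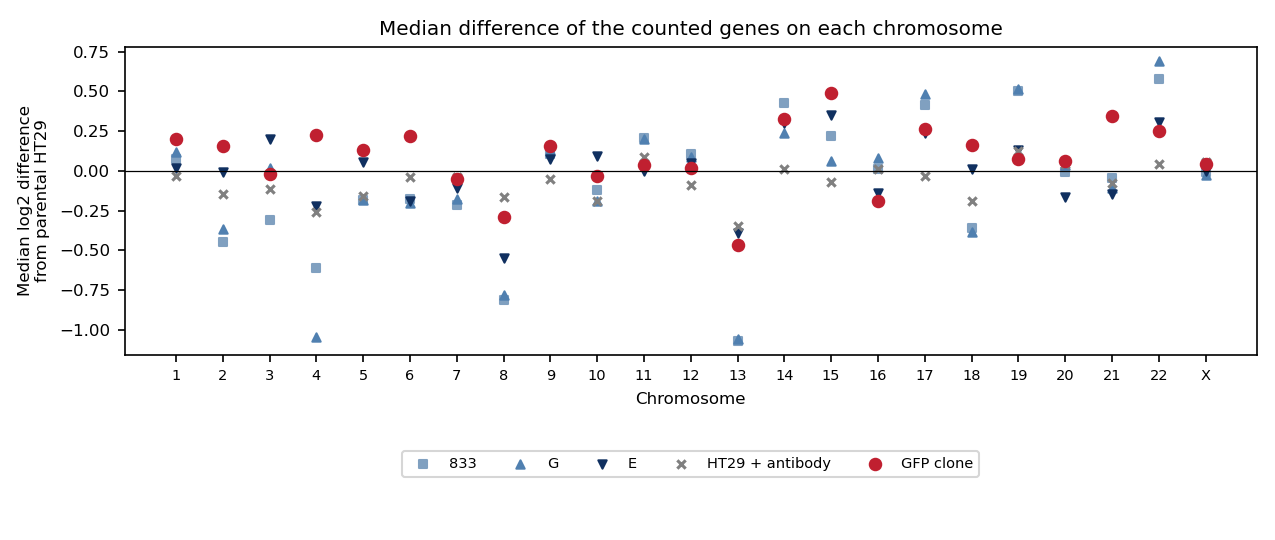
Median log2 difference from parental HT29 (y axis) of the counted genes on each chromosome (x axis), for the GFP clone, the 3 CD24 shRNA clones and antibody-treated HT29. Chromosome 13 is lowest for the GFP clone (-0.46) and chromosome 15 highest (0.49), and clones 833 and G reach -1.07 and -1.06 on chromosome 13.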

How the data were processed

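RNA of 8 samples was hybridised to Affymetrix human GeneChip arrays. The deposited table holds an intensity per probe set, not log-transformed, which the authors made with MAS5 (version not given in the sources used here), per the submitters' processing notes. MAS5 brings each array to a common target, so no further scaling was applied. Of 22277 probe sets, 62 were controls, and 19064 had 1 symbol in the platform annotation, updated through the Entrez ID (19052 matched). A gene was represented by the probe set with 1 symbol that was brightest on average over all arrays. Differences were computed from the deposited values as log2(intensity + 10). Precision is limited by 1 array a side.

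The code that sorts genes into classes was run on simulated bright genes with shifts past the threshold and little noise. That checks the code only, not calls near the threshold or on dim genes. Named genes are CD24, the 12 largest differences per direction of the shared genes and of the GFP clone alone, up to 6 members per list plus those needed to account for it, and the runs of neighbours; ISG15, CXCL10, IFNA1 and IFNB1 were named after their values were seen. Of 693 symbols in 34 lists, 594 had a value. The members and lists were chosen with earlier results of these data known. Alternatives were the added value, the filter, quantile normalization, probe set choice, a 4-fold threshold, the antibody-treated reference and leaving out each CD24 shRNA clone. Genes without an entry in the annotation were not analysed here. Analyses used Python 3.11.15 with pandas 2.3.3 and numpy 2.4.6.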

Additional observations from a re-analysis of the deposited data

How the results depend on the processing

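No paired analysis was possible because the labels give no replicate numbers that the GFP clone and parental HT29 share, and each has 1 array. Counts at 2-fold or more went from 1019 to 1737 higher genes with no filter, and to 255 higher and 71 lower at 4-fold. Shared higher genes went from 363 to 236 with 50 added before log2, 237 with both arrays above the filter and 74 at 4-fold. Shared lower genes went from 162 to 31 at 4-fold and 248 where at least 2 of the 3 CD24 shRNA clones had to share the difference. Genes higher in the GFP clone alone went from 157 to 242 with no filter, 25 at 4-fold and 339 where at least 2 of the 3 clones had to differ from it. Genes lower in it alone went from 42 to 97 after quantile normalization, 3 at 4-fold and 95 with at least 2 of 3 clones. Leaving out each CD24 shRNA clone in turn gave 395 to 434 shared higher, 170 to 226 shared lower, 162 to 300 alone higher and 43 to 76 alone lower genes, the highest of each without clone E. The fold threshold and the rule on clones change the counts by construction; the cause of the other shifts was not tested. With no filter, the medians of the MHC class II, mucin and S100 lists reversed to -0.12, -0.0323 and 0.0255, and without cross-hybridising probe sets the mucin median reversed to -0.0906. Against antibody-treated HT29, 7 named genes reversed: ADM -0.27, ALDOC -1.11, CDKN1A -0.34, CLIC3 -0.13, IRS2 0.43, KRT20 -0.54 and PPL -0.00262. Without cross-hybridising probe sets AKR1C1 reversed to 0.024. Of 140 named genes at 2-fold, 36 were under it against antibody-treated HT29, 6 with 50 added, 6 with the mean of probe sets and 3 after quantile normalization.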
